A study of Rattus norvegicus with 12 samples.

Results

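Adm (adrenomedullin), Vegfa and 8 further genes of the response to low oxygen and of sugar breakdown were followed across 4 groups of rat corneas. They were taken by gene symbol from the deposited expression table: Adm, Vegfa and Ndrg1 as secreted or inducible products, Slc2a1, Hk2, Pfkp, Pgk1, Ldha and Pkm as genes of glucose uptake and glycolysis, and Hif1a as a regulator. Of the 10 symbols, 9 had a row among the 30452 genes of the table, and 7 of those 9 passed the filter on low values that left 6112 genes for testing. Pgk1, a glycolytic kinase, was not analysed here because no row carried its symbol.

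The study concerns a silk patch for the ocular surface and measured RNA of whole rat cornea by sequencing in 12 libraries, 3 in each group. The group labels are Control, Alkali-burned, SF/HA-HEP-PAM and SF/HA. Control carries no treatment in its label, Alkali-burned carries the injury, and the other two carry the names of patch materials. What SF, HA, HEP and PAM stand for is not written out, nor is it stated if the patch corneas had been burned, and the labels give no strain, sex, age or time after treatment. Nothing says that replicates were separate animals; p-values therefore measure only the spread between these libraries, which may be technical.

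In most cells, oxygen-dependent hydroxylation marks the HIF alpha proteins for destruction. When oxygen falls they persist, pair with Arnt and bind short DNA motifs near genes such as those for adrenomedullin, VEGF, glucose transporters and glycolytic enzymes. Because this control acts mainly on the protein, the level of Hif1a mRNA says little about the activity of the factor. The cornea is normally free of vessels and draws much of its oxygen from the air, and its epithelium relies strongly on glycolysis.

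The core letters of the HIF-binding motif are ACGTG or GCGTG, and the promoters of 3 members are shown because they differ in how often they hold these letters. Sequences are from RefSeq, on build GRCr8, and run from 250 bases before to 50 bases after the annotated start; 8 of the 10 symbols matched an entry, with 9 promoters in all because Vegfa has 2. Both strands were searched, so CACGT and CACGC count as well, a CACGTG counts as 2 matches because it reads ACGTG on both strands, and capitals mark the matches. Ldha (chr1:106507842-106508141, plus strand) holds 6 matches, Slc2a1 (chr5:138002272-138002571, plus strand) holds 4, and Adm (chr1:174179950-174180249, plus strand) holds none, so its run has no capitals.
Ldha: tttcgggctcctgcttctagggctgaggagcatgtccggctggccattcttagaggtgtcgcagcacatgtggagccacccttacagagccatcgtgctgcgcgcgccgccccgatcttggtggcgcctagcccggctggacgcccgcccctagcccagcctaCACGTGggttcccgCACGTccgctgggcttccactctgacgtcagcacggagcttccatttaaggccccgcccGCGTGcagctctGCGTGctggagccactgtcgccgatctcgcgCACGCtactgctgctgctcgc
Slc2a1: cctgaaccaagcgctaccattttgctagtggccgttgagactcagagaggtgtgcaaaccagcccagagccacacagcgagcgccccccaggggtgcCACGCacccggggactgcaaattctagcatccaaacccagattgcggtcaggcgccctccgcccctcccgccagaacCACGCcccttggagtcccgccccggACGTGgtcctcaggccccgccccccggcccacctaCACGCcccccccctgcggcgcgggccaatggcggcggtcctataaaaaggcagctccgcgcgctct
Adm: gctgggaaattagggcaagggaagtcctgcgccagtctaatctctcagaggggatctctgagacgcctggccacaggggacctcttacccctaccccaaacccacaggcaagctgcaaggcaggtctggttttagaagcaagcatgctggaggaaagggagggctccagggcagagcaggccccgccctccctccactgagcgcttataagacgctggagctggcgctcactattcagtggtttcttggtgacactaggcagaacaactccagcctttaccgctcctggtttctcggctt
Hif1a holds 3 matches and Pfkp 2, while Hk2, Pkm and both Vegfa promoters hold none in these windows, so 4 of 8 members with a promoter carry at least 1 match. Of all 33469 promoters of the same length, 41.6% hold at least 1 of the motifs and 19.2% hold 2 or more. A match describes letters only, and its absence says nothing about sites elsewhere.

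Reads assigned to genes numbered 486264 to 1015788 per Control library and 1173159 to 1265298 per burned library. SF/HA libraries held 499061 to 957696 and SF/HA-HEP-PAM ones 1245606 to 2117399. Values are FPKM, reads scaled to gene length and to the depth of the library, where the length used is the whole genomic span with introns, so levels of genes with long introns are understated. For a 1 kb gene without reads, counting error alone leaves room for 1.42 FPKM in the deepest library and 6.17 in the shallowest. Of 8 corneal epithelium marker genes with a row, none was at 0 in any group. Their summed share of reads was 3.48% to 6.08% in Control and 2.06% to 3.10% after the burn. With the patches it was 2.83% to 3.75% (SF/HA) and 3.96% to 4.20% (SF/HA-HEP-PAM). 4 libraries stood apart from their groups: Control replicate 1 had 7.06% of reads on 7 keratocyte genes against 2.77% and 3.08% in the other Controls, and 1 library of each other group had far more reads on 10 neutrophil genes than its partners. These were replicate 1 of the burned group (0.682%), replicate 2 of SF/HA (1.79%) and replicate 3 of SF/HA-HEP-PAM (2.05%), where Control had 0.0401% to 0.0458%. In whole tissue, fewer cells of a type and less RNA per cell cannot be told apart.

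A gene was called when limma's Benjamini-Hochberg adjusted p over all 6112 genes was below 0.05 and the difference in log2(FPKM + 1) was above 1 or below -1, which understates the change of low genes. Differences below are on that log2 scale, and levels are means ± SD in FPKM over n = 3 libraries.

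Adm encodes a secreted vasodilator peptide that also acts on vessel and epithelial barriers. It was low in the burned corneas and high in both patch groups. Its level was 70.5, 100.5 and 104 FPKM in the 3 Control libraries (91.6 ± 18.4), and 24.9, 19.5 and 21.4 in Alkali-burned (21.9 ± 2.75). In SF/HA it was 130, 125 and 82.5 (113 ± 26.2), and in SF/HA-HEP-PAM 208, 222 and 108 (179 ± 62.3). All 3 burned libraries lay below the other 9, SF/HA overlapped both Control and SF/HA-HEP-PAM, and every SF/HA-HEP-PAM library lay above every Control library. Adm fell after the burn by 2.00 (SE 0.29, limma adjusted p = 0.00302). It was higher than in the burned corneas by 2.29 in SF/HA (SE 0.29, adjusted p = 0.00324) and by 2.91 in SF/HA-HEP-PAM (SE 0.29, adjusted p = 0.000165), both against the same burned libraries. These 3 calls held in all 12 fits that left out 1 library.

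Whether Adm differed between the patches was not settled at this spread: the difference of 0.63 had a 95% interval of -0.02 to 1.27 (limma adjusted p = 0.211). Against Control the SF/HA value was 0.29 (interval -0.36 to 0.93, adjusted p = 0.612). SF/HA-HEP-PAM stood 0.91 above Control with an adjusted p of 0.0471, short of the fold threshold. SF/HA-HEP-PAM replicate 3 was the lowest of its group for Adm, and without it the value against Control was 1.24 (adjusted p = 0.0130) and was called. Without all 4 libraries that stood apart, Adm was called between the patches as well (1.05, adjusted p = 0.0367). Adm (ENSRNOG00000027030) lies on chromosome 1 from 164745466 to 164747654 on the plus strand of mRatBN7.2. It overlaps no other gene of the table and had 54 to 1029 reads per library. Its span there is 2189 bases against 18195 in RefSeq on GRCr8, and its FPKM rests on the shorter span.

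Vegfa encodes the main growth factor of blood vessel sprouting. Its mean was lowest in Control and highest in the patch groups, with libraries of most groups overlapping. Control libraries read 7.64, 3.46 and 3.66 FPKM (4.92 ± 2.36), Alkali-burned 11.7, 7.11 and 7.55 (8.79 ± 2.55), SF/HA 7.03, 17.4 and 13.3 (12.6 ± 5.21) and SF/HA-HEP-PAM 11.0, 12.8 and 15.02 (12.9 ± 2.03). Only SF/HA-HEP-PAM was separated from Control, with every library above it; the other pairs of groups overlapped, with Control replicate 1 inside the burned range and SF/HA replicate 1 below all burned libraries. Vegfa rose in SF/HA-HEP-PAM against Control by 1.30 (SE 0.34, limma adjusted p = 0.0222). That call was lost without Control replicate 2 (adjusted p = 0.0752), Control replicate 3 (0.0738), SF/HA-HEP-PAM replicate 2 (0.0598) or SF/HA-HEP-PAM replicate 3 (0.0814).

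Against the same Control libraries SF/HA gave 1.19 (SE 0.34, limma adjusted p = 0.0695), which was called without Control replicate 1 (1.49, adjusted p = 0.0232) or without SF/HA replicate 1 (1.53, adjusted p = 0.0247). The burn alone gave 0.77 (SE 0.34, interval 0.01 to 1.53, adjusted p = 0.207). Against the burn the patches gave 0.42 and 0.53, with intervals of -0.34 to 1.18 and -0.23 to 1.29. Between the patches the difference was 0.11 (interval -0.65 to 0.87). Vegfa (ENSRNOG00000019598) lies on chromosome 9 from 14955300 to 14970641, plus strand, with 47 to 417 reads per library.

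Ndrg1, a cytoplasmic protein of stressed and differentiating epithelium whose gene is commonly used as a marker of hypoxia, was highest in SF/HA-HEP-PAM. Control read 1.24, 2.10 and 1.24 FPKM (1.53 ± 0.496) and Alkali-burned 1.07, 2.04 and 1.41 (1.51 ± 0.493). SF/HA read 2.75, 3.05 and 2.497 (2.77 ± 0.277) and SF/HA-HEP-PAM 4.17, 5.66 and 8.46 (6.09 ± 2.18). The Control and burned ranges lay on each other, all SF/HA libraries lay above both, and all SF/HA-HEP-PAM libraries lay above those. Ndrg1 rose in SF/HA-HEP-PAM by 1.47 against the burn (SE 0.23, limma adjusted p = 0.00196) and by 1.46 against Control (SE 0.23, adjusted p = 0.00231), and both calls held in all 12 fits that left out 1 library.

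Between the patches Ndrg1 differed by 0.87 (SE 0.23, interval 0.35 to 1.39), which passed limma's adjusted p (0.0451) but not the fold threshold. SF/HA gave 0.60 against the burn (adjusted p = 0.224) and 0.59 against Control (adjusted p = 0.170). The burn itself gave -0.01 (interval -0.53 to 0.51). Ndrg1 lay near the pseudocount of 1 in Control and burned corneas, and with a pseudocount of 0.1 its difference between SF/HA-HEP-PAM and the burn was 1.93. Ndrg1 (ENSRNOG00000007393) lies on chromosome 7 from 98684487 to 98725880, minus strand, with 25 to 496 reads per library.

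Slc2a1 encodes the facilitative glucose transporter that supplies most epithelia. Its levels ran in the same order of groups as Adm. Control read 2.77, 2.36 and 2.48 FPKM (2.53 ± 0.211), Alkali-burned 2.24, 1.43 and 1.51 (1.73 ± 0.443), SF/HA 2.81, 4.33 and 2.52 (3.22 ± 0.974) and SF/HA-HEP-PAM 4.65, 5.02 and 8.19 (5.96 ± 1.95). The burned libraries were the lowest 3 of the 12 and the SF/HA-HEP-PAM libraries the highest 3, while SF/HA overlapped Control. Slc2a1 rose in SF/HA-HEP-PAM against the burn by 1.33 (SE 0.22, limma adjusted p = 0.0024), and this call held in all 12 fits that left out 1 library (lowest 1.11).

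Against Control, SF/HA-HEP-PAM gave 0.94 (SE 0.22, limma adjusted p = 0.0131), under the fold threshold; it was 1.08 and called without SF/HA-HEP-PAM replicate 1, and 1.03 and called without replicate 2. Between the patches the difference was 0.71 (interval 0.22 to 1.20, adjusted p = 0.0738). SF/HA gave 0.62 against the burn (adjusted p = 0.185) and 0.23 against Control (adjusted p = 0.589), and the burn gave -0.39 (interval -0.87 to 0.10, adjusted p = 0.321). Slc2a1 (ENSRNOG00000007284) lies on chromosome 5 from 132717196 to 132745416, plus strand, with 38 to 300 reads per library.

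Hk2 and Pfkp, which encode a hexokinase and a phosphofructokinase of the early steps of glycolysis, never reached 1 FPKM and were not in the limma test. Hk2 was 0.293 ± 0.161 FPKM in Control, 0.172 ± 0.0291 after the burn, 0.327 ± 0.145 with SF/HA and 0.360 ± 0.0511 with SF/HA-HEP-PAM, on 7 to 37 reads per library. Every library of both patch groups lay above every burned library for Hk2. Pfkp was 0.0647 ± 0.0303, 0.157 ± 0.0623, 0.190 ± 0.0434 and 0.275 ± 0.217 in the same order, on 1 to 42 reads, with SF/HA-HEP-PAM replicate 3 alone at 0.525. With voom, a count model run on reads recovered from the FPKM values over 8653 genes, Hk2 rose in SF/HA-HEP-PAM against the burn by 1.03 (SE 0.36, adjusted p = 0.0382). Pfkp was not called with voom in any comparison; its values were above every Control library in all 9 others, and its adjusted p in SF/HA-HEP-PAM against Control was 0.119. Hk2 (ENSRNOG00000006116) lies on chromosome 4 from 115234509 to 115283530, minus strand, and Pfkp (ENSRNOG00000017163) on chromosome 17 from 63729780 to 63794018, plus strand.

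Pkm encodes the pyruvate kinase of the last glycolytic step, and it followed another order, with Control lowest. Control read 12.9, 14.2 and 13.7 FPKM (13.6 ± 0.682), Alkali-burned 29.6, 27.0 and 24.5 (27.0 ± 2.56), SF/HA 26.4, 37.3 and 27.5 (30.4 ± 5.99) and SF/HA-HEP-PAM 28.7, 34.4 and 54.7 (39.3 ± 13.7). All 9 burned and patch libraries lay above the 3 Controls, and those 3 groups overlapped each other. Against Control, Pkm rose by 1.09 in SF/HA (SE 0.22, limma adjusted p = 0.0174) and by 1.41 in SF/HA-HEP-PAM (SE 0.22, adjusted p = 0.0022), and it was 0.94 higher after the burn (SE 0.22, adjusted p = 0.0271), just under the fold threshold. These 3 comparisons share the Control libraries.

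The SF/HA-HEP-PAM call for Pkm held in all 12 fits that left out 1 library. The SF/HA call was lost without Control replicate 2 (limma adjusted p = 0.0505), Control replicate 3 (0.0511) or SF/HA replicate 2 (0.0541), and it was 0.90 without the 4 libraries that stood apart. Against the burn Pkm gave 0.15 in SF/HA (interval -0.34 to 0.64) and 0.47 in SF/HA-HEP-PAM (interval -0.02 to 0.97), and between the patches 0.32 (interval -0.17 to 0.82). Pkm (ENSRNOG00000011329) lies on chromosome 8 from 60057402 to 60079599, plus strand, with 139 to 1619 reads per library; the counts do not tell its splice forms apart.

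Ldha encodes the lactate dehydrogenase subunit that favours lactate formation, and it differed least among the tested members. It was 11.97 ± 0.433 FPKM in Control, 14.0 ± 1.87 after the burn, 15.8 ± 0.585 in SF/HA and 17.3 ± 1.94 in SF/HA-HEP-PAM. All Control libraries lay below the other 9, with the other 3 groups overlapping. None of its 6 differences passed the fold threshold; the largest was 0.49 between SF/HA-HEP-PAM and Control (SE 0.13, interval 0.20 to 0.78, limma adjusted p = 0.0236). Its promoter, the first printed above, holds the most motif matches of the 8 members that have one. Ldha (ENSRNOG00000013009) spans chromosome 1 from 97366021 to 97433472, plus strand, 67452 bases against 9421 in RefSeq. That span overlaps Ldhc on the same strand and Tsg101 on the other, which had 1159 reads in all against 13255 for Ldha, so its FPKM is understated and its reads are uncertain where the genes overlap.

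Hif1a encodes the oxygen-regulated subunit of the HIF factor. It was 3.67, 1.91 and 1.16 FPKM in Control (2.25 ± 1.29), 1.33, 1.06 and 0.934 after the burn (1.11 ± 0.203), 1.94, 1.92 and 2.14 in SF/HA (2.00 ± 0.123) and 2.57, 2.35 and 2.67 in SF/HA-HEP-PAM (2.53 ± 0.163). Both patch groups lay wholly above the burned libraries, SF/HA-HEP-PAM lay wholly above SF/HA, and Control spread over all of them. SF/HA-HEP-PAM was 0.75 above the burn (SE 0.23, limma adjusted p = 0.0428), below the fold threshold, and SF/HA 0.51 (adjusted p = 0.300). The burn gave -0.55 against Control (interval -1.07 to -0.04, adjusted p = 0.178), with Control replicate 1 alone above 2 FPKM in its group. On recovered reads with voom Hif1a rose in SF/HA-HEP-PAM against the burn by 1.20 (SE 0.28, adjusted p = 0.00408). Hif1a (ENSRNOG00000008292) lies on chromosome 6 from 92624390 to 92669261, plus strand, with 43 to 223 reads per library.

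**Figure D1:**
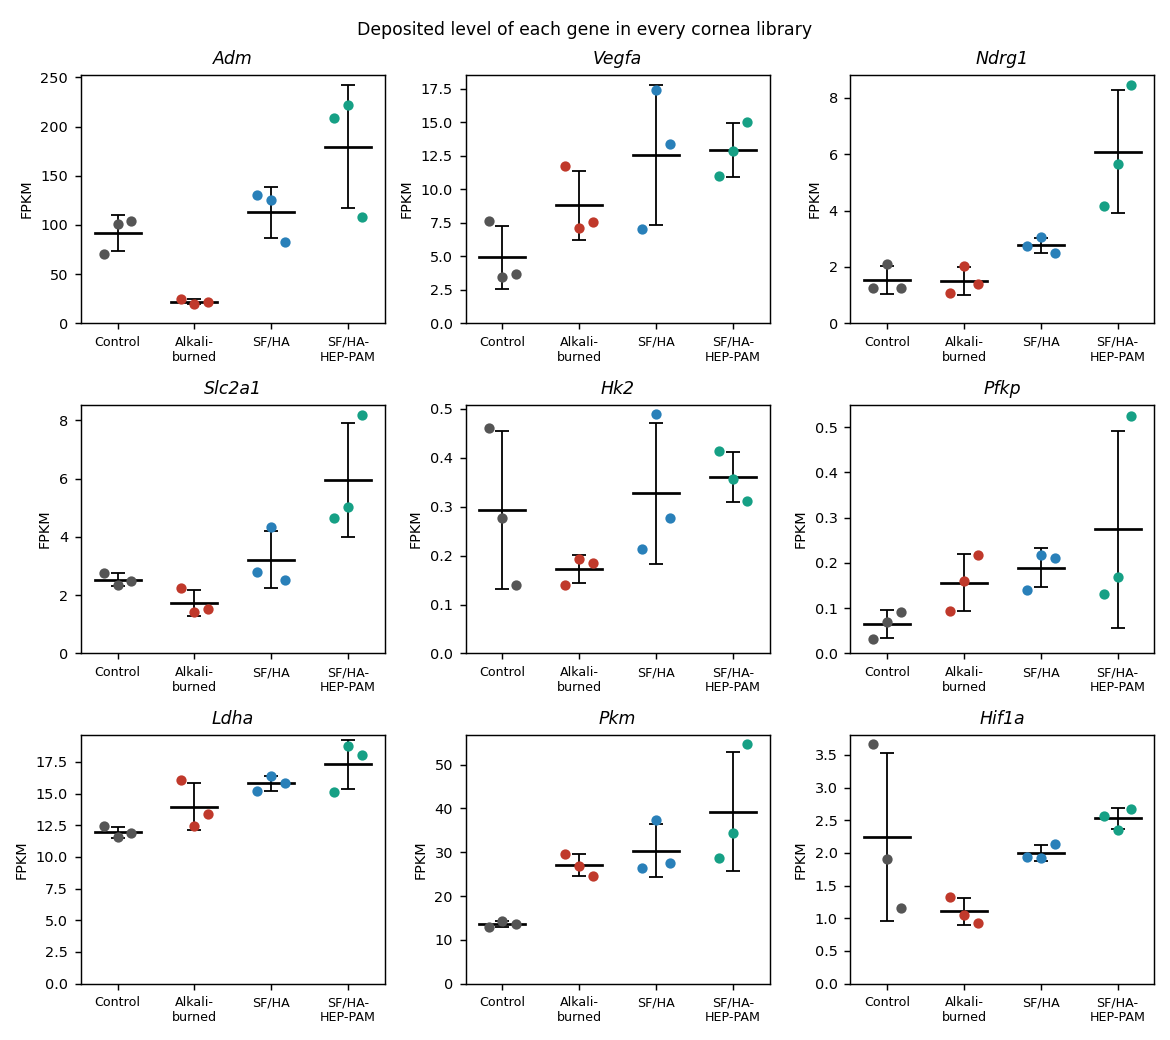
Each panel plots the FPKM of 1 gene (linear axis from 0) in the 3 libraries of each of the 4 groups; points are libraries, horizontal lines are means and bars are SD. Adm falls to about 22 FPKM in the burned corneas and stands highest in SF/HA-HEP-PAM, while Pkm and Ldha are lowest in Control.

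Set side by side, the group means of the 9 measured members fell into 3 orders, and SF/HA-HEP-PAM was highest in all of them. Adm, Ndrg1, Slc2a1 and Hk2 ran from SF/HA-HEP-PAM through SF/HA and Control down to Alkali-burned. Vegfa, Pkm, Ldha and Pfkp also had SF/HA-HEP-PAM above SF/HA but had Alkali-burned above Control. Hif1a alone had Control above SF/HA. Most neighbours in these orders were not called apart: no tested member was called between the patches, and between Control and the burn Adm was called and the 6 other tested members were not.

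In each comparison the tested members can be read against the share of all 6112 genes called by limma. After the burn 1 of 7 fell, Adm, where 5.69% of all genes were called in either direction and 1.28% lower. In SF/HA against the burn 1 of 7 rose, Adm again, where 2.44% were called and 0.376% higher. In SF/HA-HEP-PAM against the burn 3 of 7 rose, Adm, Ndrg1 and Slc2a1, where 11.1% were called and 7.38% higher. Against Control 1 of 7 rose in SF/HA, Pkm, where 4.56% were called and 3.19% higher. In SF/HA-HEP-PAM against Control 3 of 7 rose, Ndrg1, Pkm and Vegfa, where 11.6% were called and 9.21% higher. The comparisons with the burn share the burned libraries, and those with Control share the Control libraries.

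Between the patches limma called 0 of 7 members, where 4.37% of genes were called; 2 of 7, Ndrg1 and Slc2a1, had an unadjusted p below 0.05, and voom called 1 of 9, Ndrg1 (1.08, SE 0.27, adjusted p = 0.0165), where voom called 9.35% of genes. In SF/HA-HEP-PAM against the burn voom called 5 of 9, Adm, Ndrg1, Slc2a1, Hif1a and Hk2, where it called 22% of genes. Over the 4 groups 5 of 7 members passed limma's F-test, Adm (adjusted p = 0.000511), Ndrg1 (0.00371), Pkm (0.00576), Slc2a1 (0.00822) and Vegfa (0.0497), where 26.7% of genes passed. Ldha (0.0608) and Hif1a (0.113) did not. Adm, Ndrg1, Pkm and Slc2a1 passed in all 12 fits that left out 1 library, but Vegfa passed in only 2 of them, with an adjusted p of up to 0.150.

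The median difference of the 7 tested members was -0.01 after the burn, against 0.06 over all tested genes. It was 0.51 in SF/HA against the burn (all genes -0.04) and 0.75 in SF/HA-HEP-PAM against the burn (all genes 0.04). Between the patches it was 0.32 (all genes 0.13), and against Control 0.38 in SF/HA (all genes 0.00) and 0.94 in SF/HA-HEP-PAM (all genes 0.14). All 3 libraries lay above all 3 Controls for 6 of the 7 tested members in SF/HA-HEP-PAM, where this held for 27.2% of all tested genes. It held for 4 of 7 in SF/HA-HEP-PAM against the burn (26.2% of genes), for 4 of 7 in SF/HA against the burn (9.70%), for 3 of 7 in SF/HA against Control (12.9%) and for 3 of 7 between the patches (21.6%). After the burn 2 of 7 lay wholly above Control (19.1%) and 2 wholly below (10%).

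**Figure D2:**
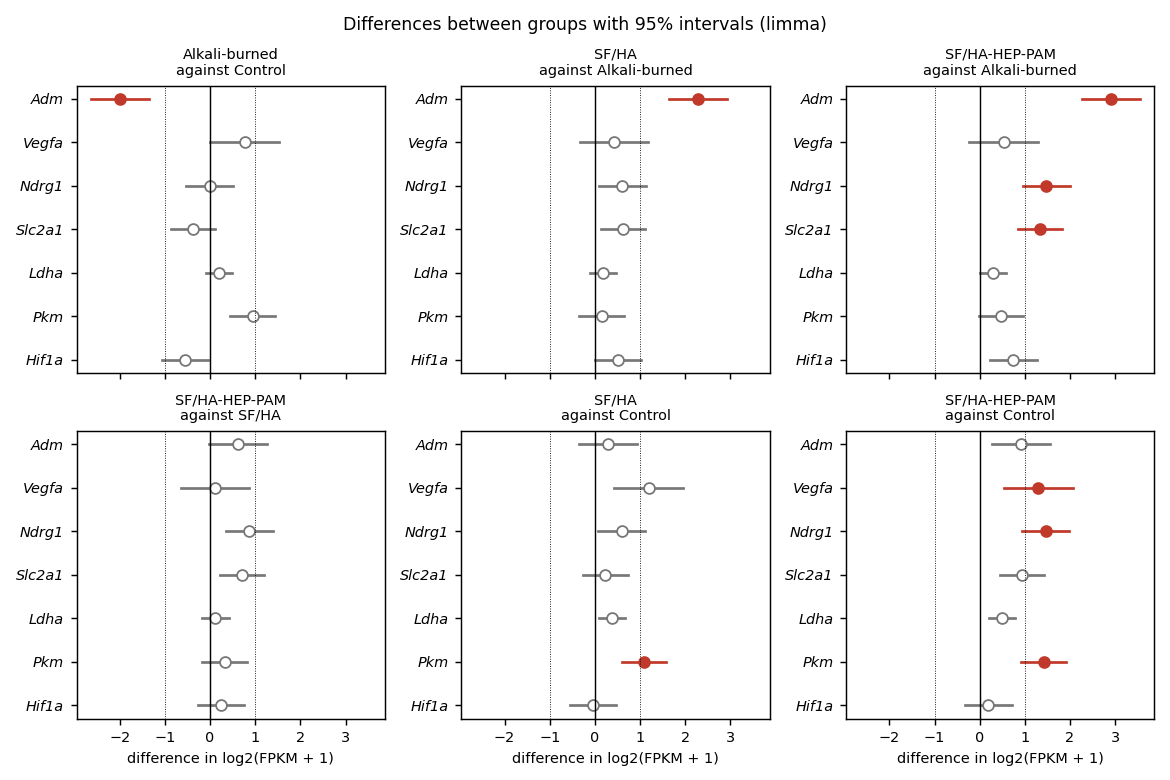
Each panel is 1 comparison; points are differences in log2(FPKM + 1) of the 7 tested members (horizontal axis) with 95% intervals from limma, filled red where called and open grey where not, and dotted lines mark differences of 1 and -1. Adm is called in the 3 comparisons that involve the burned corneas, and no member is called between the patches.

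Depth and gene length moved with the SF/HA-HEP-PAM comparisons. These libraries held 1245606 to 2117399 reads against 1173159 to 1265298 after the burn. On recovered reads the median difference of all genes against the burn ran from -0.19 in the shortest 10% of genes to 0.54 and 0.40 in the longest 2 bins of 10%. Adm lies in the shortest bin, Vegfa in one with a median of 0.08, Slc2a1 and Pkm in one with 0.23, Ndrg1 in one with 0.31, Hif1a and Hk2 in one with 0.42, and Pfkp and Ldha in one with 0.54. The voom differences of 7 of the 9 members lay above the medians of their bins: Adm (2.96), Ndrg1 (1.99), Slc2a1 (1.76), Hif1a (1.20), Hk2 (1.03), Vegfa (0.58) and Pkm (0.49). Those of Pfkp (0.51) and Ldha (0.31) lay below. In the limma test the same medians were 0.23 in the longest bin, which holds Ndrg1, Hif1a and Ldha, and -0.08 in the one that holds Adm. The depth gap was wider for Control (486264 to 1015788 reads) and SF/HA (499061 to 957696). With voom the median against Control was 0.08 in the shortest bin and 0.42 and 0.34 in the longest 2. Between the patches these were -0.11, 0.52 and 0.40. Limma medians against Control were 0.56 in the shortest bin, and 0.20, 0.15 and 0.10 in the bins of Ndrg1, Pkm and Vegfa. The part of length in these results was not tested.

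Cell type markers moved with the groups too. The ratio of mean epithelium marker shares was 0.517 for the burn against Control, where that of Adm FPKM was 0.239, 1.21 for SF/HA against the burn, where that of Adm was 5.13, and 1.52 for SF/HA-HEP-PAM against the burn, where that of Adm was 8.18. Keratocyte markers, 7 of 7 with a row and none at 0 in any group, were lowest in SF/HA-HEP-PAM, the group with the highest mean of every member: 1.11% to 1.93% of reads there and 2.45% to 7.06% in the other 9 libraries, without overlap. The ratio of their mean share in SF/HA-HEP-PAM was 0.377 against Control, 0.590 against the burn and 0.484 against SF/HA. All 10 macrophage genes had rows, and Adgre1 was at 0 in Control. Their share was 0.0162% to 0.0197% in Control and 0.0609% to 0.0743% after the burn. In the patch groups it was 0.0538% to 0.116% (SF/HA) and 0.0485% to 0.0571% (SF/HA-HEP-PAM), above Control as Pkm was. Of 10 vessel and lymphatic endothelium genes with a row, Prox1 was at 0 in all groups, Tek in all but Control, and Emcn in Control. Their summed share was 0.000226% to 0.00185% in Control and 0.00298% to 0.00756% after the burn. With the patches it was 0.00361% to 0.00856% (SF/HA) and 0.000992% to 0.00225% (SF/HA-HEP-PAM), so it did not exceed 0.00856% in any library. The neutrophil share was 0.145% to 0.682% after the burn, 0.179% to 1.79% with SF/HA and 0.235% to 2.05% with SF/HA-HEP-PAM. Of its 10 genes, Retnlg was at 0 in all groups and Mmp8 in all but SF/HA-HEP-PAM. Ngp was at 0 in Control and after the burn, and Csf3r and Cxcr2 were at 0 in Control, so the share there rests on the other genes. SF/HA-HEP-PAM replicate 3, the highest in these markers, was the highest of its group for 6 of the 9 members, and SF/HA replicate 2 was the highest of its group for 7 of 9. Without the 4 libraries that stood apart, Ndrg1 was 1.12 above the burn (limma adjusted p = 0.0219), Slc2a1 1.24 (0.00232), Adm 3.33 (0.00106) and, against Control, Pkm 1.12 (0.00355) and Vegfa 1.498 (0.0146) in SF/HA-HEP-PAM. The part of cell composition in these results was not tested.

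Other genes of the same pathways were read from lists chosen by known function. Of 25 further genes of glucose transport and glycolysis with a row, 12 were tested. Gapdh, a mid-pathway dehydrogenase and the most abundant of them, rose after the burn from 80.8 ± 21.6 to 181 ± 2.999 FPKM (1.19, limma adjusted p = 0.0104), which was 0.95 without Control replicate 1 and 0.96 under quantile scaling, and then not called. Eno1, an enolase, rose in SF/HA-HEP-PAM against Control from 31.0 ± 6.96 to 78.1 ± 29.1 FPKM (1.27, adjusted p = 0.00840), which was 0.99 and not called without SF/HA-HEP-PAM replicate 3. Ldhb, the other lactate dehydrogenase subunit, fell against Control, from 17.5 ± 5.36 to 5.19 ± 1.62 FPKM in SF/HA-HEP-PAM (-1.56, adjusted p = 0.00791). In SF/HA it fell by 1.28 (adjusted p = 0.0446), a call that held in 3 of 12 fits that left out 1 library. In all, 1 of 12 rose after the burn (5.69% of all genes called), 1 fell in SF/HA against Control (4.56%), and 1 rose and 1 fell in SF/HA-HEP-PAM against Control (11.6%). These shares of all genes cover both directions, so they are wider than the counts in 1 direction. With voom the count in SF/HA-HEP-PAM against Control was 6 of 18, 5 higher and 1 lower, where voom called 17.8% of genes. Limma called none in SF/HA against the burn or between the patches. It also called none in SF/HA-HEP-PAM against the burn, but Ldhb, at -0.92 there, was called under quantile scaling (-1.03) and without the 4 libraries that stood apart (-1.16). Their median difference in SF/HA-HEP-PAM was -0.04 against the burn (all genes 0.04) and 0.59 against Control (all genes 0.14). With voom, Pfkfb3, an enzyme that makes an activator of phosphofructokinase, rose in SF/HA-HEP-PAM against the burn by 2.27 (adjusted p = 0.000307) on 4 to 68 reads per library, and Ldhb fell by 1.04 (adjusted p = 0.0160), where voom called 22% of genes.

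Of 13 rows for HIF subunits and oxygen-sensing genes only 4 were tested, Egln2, Egln3, Vhl and Cited2, and limma called none in any comparison. Of all genes it called 2.44% to 11.6%, depending on the comparison. Cited2, a HIF-inducible inhibitor of HIF coactivators and the most abundant of them, averaged 113 ± 12.8, 118 ± 20.2, 78.9 ± 18.3 and 116 ± 11.9 FPKM in Control, after the burn, with SF/HA and with SF/HA-HEP-PAM. Epas1, the other main HIF alpha subunit, had at most 11 reads in any library. Of 8 rows tested with voom, 3 rose in SF/HA-HEP-PAM against the burn, where voom called 22% of all genes. They were the coactivators Crebbp (1.88, voom adjusted p = 0.000307) and Ep300 (1.30, adjusted p = 0.00461) and the HIF partner Arnt (1.38, adjusted p = 0.0173), all below the limma filter. Crebbp and Ep300 were also called higher with voom between the patches and in SF/HA-HEP-PAM against Control, where voom called 9.35% and 17.8% of all genes. These differences were not set beside the medians of genes of like length. Another entry of Ep300, with 0 to 2 reads per library, was too low for voom.

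Of 27 other hypoxia-inducible genes with a row, 17 were tested. Ddit4, a stress-induced inhibitor of mTOR signalling, rose against Control from 42.9 ± 9.37 FPKM to 122 ± 23.0 in SF/HA (1.49, limma adjusted p = 0.00374) and 147 ± 36.8 in SF/HA-HEP-PAM (1.74, adjusted p = 0.000758), and stood at 83.5 ± 2.97 after the burn. Angptl4, an inhibitor of lipoprotein lipase, rose against Control in all 3 comparisons, by 1.47, 1.92 and 1.38, from 4 to 6 reads per Control library. Bhlhe40, a transcriptional repressor and the most abundant of these genes, rose in SF/HA-HEP-PAM from 84.3 ± 35.3 FPKM after the burn to 364 ± 61.0 (2.16, adjusted p = 0.00618). Against Control it rose by 1.76, a call lost without Control replicates 2 or 3 or SF/HA-HEP-PAM replicate 1 (adjusted p up to 0.0582).

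By comparison, 2 of these 17 rose after the burn (Angptl4 and P4ha2). P4ha2 stayed below 1 FPKM in every Control library (0.312 to 0.978) and passed the filter only through the other groups, so its call says little. Limma called 5.69% of all genes after the burn in either direction. It called 0 in SF/HA against the burn (all genes 2.44%), 0 between the patches (4.37%) and 1, Bhlhe40, in SF/HA-HEP-PAM against the burn (11.1%). Against Control, Angptl4 and Ddit4 rose in SF/HA, and Cxcr4 was called as well, where 4.56% of all genes were called and 3.19% higher. Cxcr4 had 1 to 2 reads per Control library and reached 1 FPKM only in the other groups, so its calls against Control say little. In SF/HA-HEP-PAM against Control, Bhlhe40, Angptl4, Edn1 and Ddit4 rose and Plod1 fell, besides the call of Cxcr4, where 11.6% of all genes were called. With Cxcr4 counted, 6 were called with all libraries. The count was 4 without Control replicate 1, without SF/HA-HEP-PAM replicate 1 or without its replicate 3. The call of P4ha2, a collagen prolyl hydroxylase, was lost without replicate 1 of the burned group (0.92). That of Edn1, the vasoconstrictor endothelin, was lost without Control replicate 1 or SF/HA-HEP-PAM replicates 1 or 3 (lowest 0.90) and under median-of-ratios (0.86) or quantile scaling (0.83). That of Plod1, a collagen lysyl hydroxylase, was lost without Control replicate 1 or SF/HA-HEP-PAM replicates 2 or 3 (limma adjusted p up to 0.101). The median difference of the 17 was 0.14 after the burn (all genes 0.06), 0.37 and 0.12 for SF/HA and SF/HA-HEP-PAM against the burn (all genes -0.04 and 0.04), -0.097 between the patches (all genes 0.13), and 0.51 and 0.21 for the patches against Control (all genes 0.00 and 0.14).

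Of 7 further genes of the adrenomedullin system with a row, 3 were tested. The list held 9 symbols, of which 7 had a row. Calcrl, the membrane-spanning part of the adrenomedullin receptor, was barely seen, with 1 to 5 reads per library. Ramp3, which can partner it, had 1 to 29. No other partner of Calcrl is reported here. Ackr3, an atypical receptor that takes up adrenomedullin, rose in SF/HA-HEP-PAM from 3.41 ± 0.797 FPKM after the burn to 7.92 ± 1.08 (1.03, limma adjusted p = 0.00599), a call lost without replicate 3 of the burned group or replicate 2 of SF/HA-HEP-PAM (lowest 0.87) and under median-of-ratios (0.86) or quantile scaling (0.93). Calcb, which encodes a calcitonin gene-related peptide of the same peptide family, rose in SF/HA-HEP-PAM from 9.49 ± 3.48 FPKM after the burn to 75.4 ± 28.2 (2.84, adjusted p = 0.00221). Against Control, at 5.46 ± 1.86 FPKM, Calcb rose by 3.53 in SF/HA-HEP-PAM (adjusted p = 0.000834) and by 2.43 in SF/HA (adjusted p = 0.0122), where it was 38.1 ± 26.2 FPKM. Adm2 had 0 to 6 reads per library and passed the filter only through the burned libraries, so its calls (1 higher after the burn and 1 lower in SF/HA against the burn) say little. Apart from Adm2, limma called 2 of these genes higher in SF/HA-HEP-PAM against the burn, where 7.38% of all genes were called higher. It called 1 higher in SF/HA against Control (all genes 3.19%) and 1 higher in SF/HA-HEP-PAM against Control (9.21%). Limma called none of them after the burn, in SF/HA against the burn or between the patches, where 5.69%, 2.44% and 4.37% of all genes were called in either direction. Ackr3 was at 7.71 ± 0.866 FPKM in SF/HA, close to its level in SF/HA-HEP-PAM. With voom, Calcb and Ackr3 were called higher in SF/HA against the burn, where voom called 238 of 8653 genes. Between the patches voom called Calcb higher and Ramp3 lower, where it called 9.35% of all genes.

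Of 7 further VEGF ligands and receptors only Vegfb was tested. It was 2.18 ± 0.374 FPKM in Control, 3.07 ± 0.496 after the burn, 3.36 ± 1.11 in SF/HA and 1.56 ± 0.940 in SF/HA-HEP-PAM, on 5 to 24 reads per library. Limma did not call it with all libraries. With voom it fell in SF/HA-HEP-PAM against the burn by 1.09 (adjusted p = 0.0312), where voom called 22% of all genes. Kdr, the main signalling receptor for VEGF, had 8 to 40 reads per library. It fell with voom in SF/HA-HEP-PAM against Control by 1.16 (adjusted p = 0.0346), where voom called 17.8% of all genes. Nrp2, a VEGF co-receptor with 7 to 55 reads, rose with voom against Control by 1.89 after the burn (adjusted p = 0.00601), by 1.504 in SF/HA (adjusted p = 0.0472) and by 1.60 in SF/HA-HEP-PAM (adjusted p = 0.00733). Of 8653 genes voom called 659 after the burn and 421 in SF/HA against Control.

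**Figure D3:**
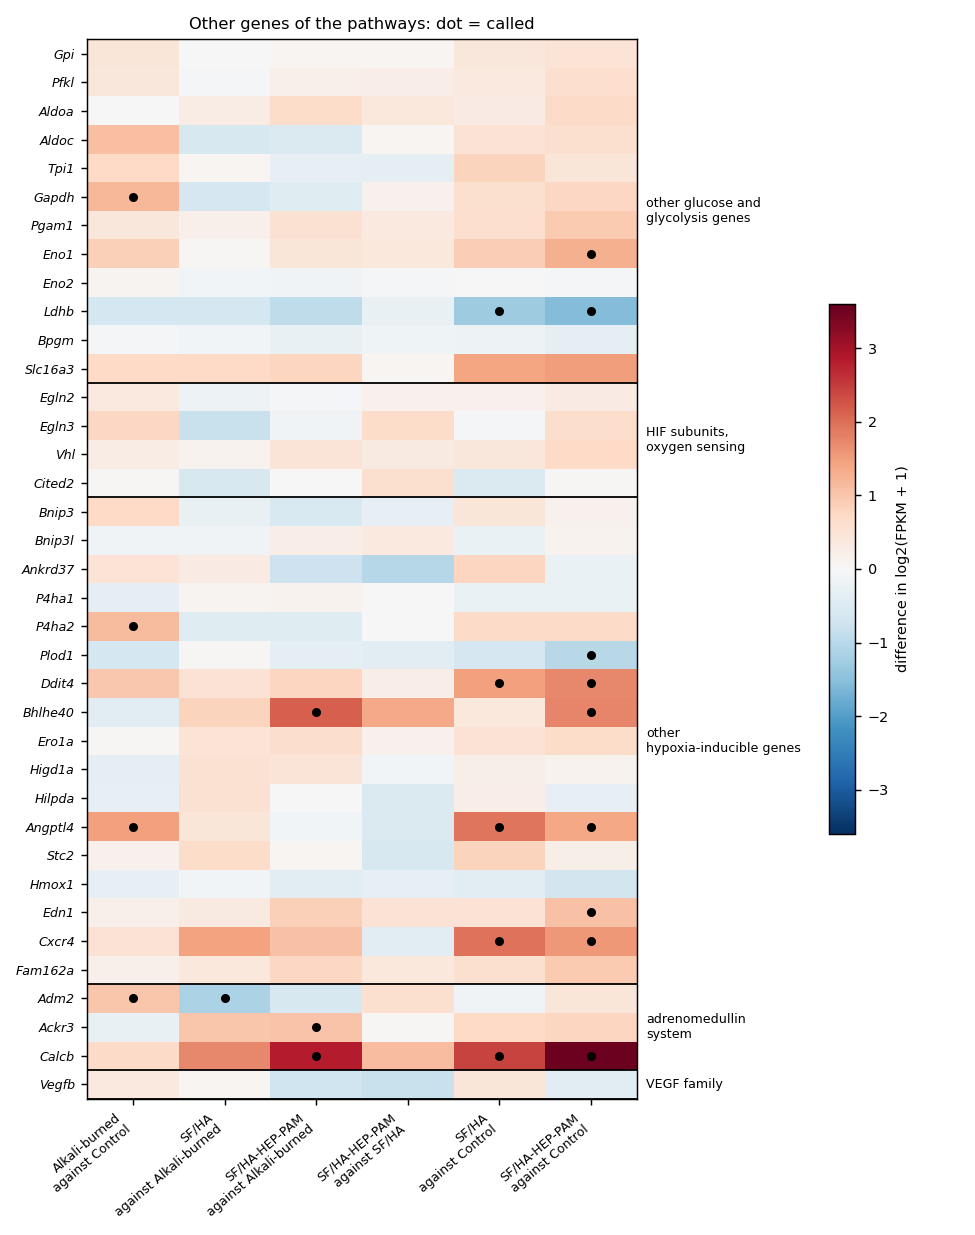
Rows are the tested genes of the 5 wider lists, columns the 6 comparisons, and colour the difference in log2(FPKM + 1), red higher and blue lower in the group named first; a dot marks a gene called by limma. The deepest reds are Calcb in SF/HA-HEP-PAM. The comparison of SF/HA-HEP-PAM with Control holds the most dots among the other hypoxia-inducible genes, 6 of 17, with Cxcr4 among them.

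Genes with the profile most like that of Adm were found by the root mean square distance between log2(FPKM + 1) values standardised per gene over the 12 libraries, among 2069 tested genes with a symbol and a mean of at least 5 FPKM. Their levels are a description, since they were chosen for this pattern. The nearest was Odc1, which makes polyamines (distance 0.324), with group means of 28.2, 9.33, 27.0 and 49.5 FPKM in Control, after the burn, with SF/HA and with SF/HA-HEP-PAM. F2rl1, a protease-activated receptor, followed (0.363; 10.4, 3.01, 9.61 and 21.3 FPKM). Then came the tight junction claudin Cldn4 (0.383; 528, 233, 553 and 1049.6 FPKM), the connexin Gjb5 (0.407; 6.65, 2.26, 4.75 and 9.43 FPKM) and the ephrin Efna1 (0.411; 14.4, 7.73, 15.7 and 24.7 FPKM). The means of all 5 were lowest in the burned corneas and highest in SF/HA-HEP-PAM.

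These 5 were the nearest of all candidates, so Vegfa, Pkm and Ldha, which were candidates too, could only lie farther off. Slc2a1, Hif1a, Ndrg1, Hk2 and Pfkp averaged below 5 FPKM and were not candidates. What their lower levels add to their distances was not tested. Slc2a1 was the nearest of the other members, at 0.703, with 4.30% of the 2069 candidates nearer to Adm. It was followed by Hif1a (0.811, 8.17%), Ndrg1 (0.842, 9.42%) and Hk2 (0.881, 11.4%). Ldha (1.07, 20.7%), Vegfa (1.24, 33.0%), Pkm (1.28, 36.1%) and Pfkp (1.30, 39.0%) lay farther off. The libraries share their depth and cell makeup across genes, so these distances carry no p-value.

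**Figure D4:**
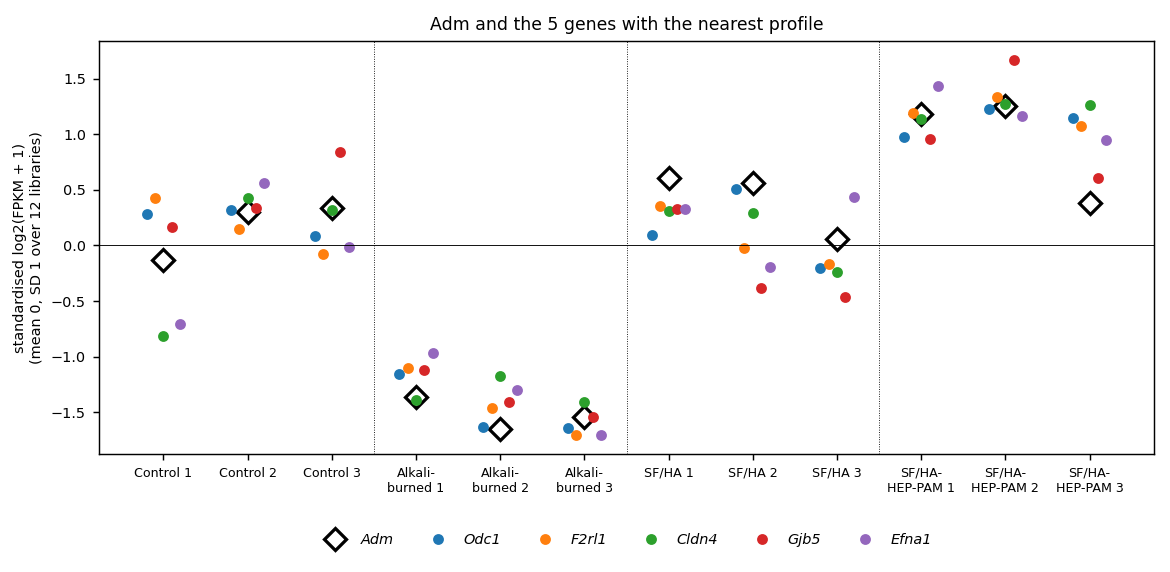
Standardised log2(FPKM + 1) (mean 0 and SD 1 for each gene, vertical axis) in the 12 libraries, for Adm as open diamonds and the 5 nearest genes as coloured dots. The mean of each of the 6 genes is lowest in the burned group and highest in SF/HA-HEP-PAM, with Adm lower in replicate 3 of that group than in its other 2 libraries.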

How the data were processed

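RNA of whole rat cornea was sequenced in 12 libraries, 3 per group. Per the labels' protocols, cDNA was primed with poly(dT) primers carrying barcodes and molecular identifiers. The authors deposited 1 table of FPKM values. The series text names fastp, HTSeq-count and DESeq2 (q-value below 0.05, fold above 2 or below 0.5), while the submitters' processing notes list bcl2fastq, fastp, STAR, featureCounts, DESeq2 and build mRatBN7.2, so the counting tool is not settled. Whether duplicate molecular identifiers were collapsed is not given in the sources used here. FPKM used the whole genomic span of each gene, introns included. Multiplying by span and depth gave whole reads for 100% of genes, within 0.01 of a read. The 108 lines naming no gene were left out, and 0 columns of sample values went unused.

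log2(FPKM + 1) was fitted with limma 3.58.1 (R 4.3.3) over all 4 groups, with a mean-variance trend, for the 6112 genes at 1 FPKM or more in at least 3 libraries. P-values were adjusted by Benjamini-Hochberg within each of 6 comparisons. This fit gave each library the same weight whatever its depth, and intervals cover only the spread between libraries. The fits were tested on simulated data. Figures used Python 3.11.15 and matplotlib 3.10.9.

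Every member was named. From each wider list the text could name called genes, up to 6 per comparison by size, and the gene of highest mean; the 5 genes nearest to Adm had a mean of at least 5 FPKM. Receptors, genes below the filter and genes named from voom alone were chosen after their values were seen. The members and lists were chosen with earlier results of these data known. A gene of the wider lists is not reported here and was left out of their counts and medians. Alternatives were pseudocounts of 0.1 and 2, no filter, a filter at 5 FPKM, median-of-ratios and quantile scaling, 2 groups only, a replicate block, library weights, no variance trend, no fold threshold, voom on recovered reads (10 reads in 3 libraries) and leaving out each library. Leaving out the 4 libraries that stood apart was added after seeing the data.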

Additional observations from a re-analysis of the deposited data

How the results depend on the processing

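The calls of Adm in the 3 comparisons with the burned group, of Ndrg1 in SF/HA-HEP-PAM against the burn and Control, of Slc2a1 against the burn and of Pkm in SF/HA-HEP-PAM against Control held in every fit that left out 1 library and without the 4 libraries that stood apart. Counts of members called moved by over 1.5 times as follows. After the burn, 2 passed with no fold threshold (1 with it). In SF/HA-HEP-PAM against the burn, 1 passed at 5 FPKM and 5 with voom (3 in the limma fit). Between the patches, 1 passed with voom, 1 with no fold threshold and 1 without the 4 libraries (0 in the limma fit). In SF/HA against Control, 2 passed at 5 FPKM, 2 with voom, and 0 to 2 when 1 library was left out (1 with all). In SF/HA-HEP-PAM against Control, 6 passed with no fold threshold (3 with it). At 5 FPKM Ndrg1 and Slc2a1 were not tested, since too few libraries reached that level for them. Hk2, among those called with voom, was not in the limma fit. The cause of the other changes was not tested, beyond the removal of the fold threshold, which lets smaller differences pass.

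Values that changed sign were all uncalled. Ndrg1 after the burn was 0.027 with library weights, 0.040 without the 4 libraries and -0.16 to 0.14 when 1 library was left out. Hif1a in SF/HA against Control was 0.24 with library weights, 0.075 with voom, 0.28 without the 4 libraries and -0.30 to 0.26 when 1 was left out. Hif1a in SF/HA-HEP-PAM against Control was -0.066 under quantile scaling and -0.065 to 0.49 when 1 was left out. Pkm in SF/HA against the burn was -0.0014 to 0.24 when 1 was left out. Between the patches, median-of-ratios and quantile scaling gave -0.089 and -0.014 for Ldha and -0.094 and -0.024 for Vegfa, which ran from -0.23 to 0.37 when 1 library was left out. The median of all genes in SF/HA-HEP-PAM against Control was 0.14 in the limma fit, -0.11 under quantile scaling and 0.24 with voom.

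Same-numbered replicates did not pair: 2 of 18 correlations of their deviations exceeded 0.1 (range -0.0935 to 0.155). With a replicate block the members called were 1, 1, 3, 0, 1 and 3 in the 6 comparisons, and 4 passed the F-test (5 without it). Over all genes, voom called 1903 in SF/HA-HEP-PAM against the burn (678 in the limma fit), 809 between the patches (267) and 1537 in SF/HA-HEP-PAM against Control (709). Without SF/HA-HEP-PAM replicate 1 or 3, 88 or 89 genes were called between the patches. Hk2 (7 to 37 reads per library), Pfkp (1 to 42) and Calcrl (1 to 5) did not pass the filter of the limma fit.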
